A study of Homo sapiens with 8 samples.

Results

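Peaks of 7 ChIP-seq libraries were examined at 10 genes that encode subunits of NuRD, the nucleosome remodelling and deacetylase complex: MTA1, MTA2, MTA3, CHD3, CHD4, HDAC1, HDAC2, MBD3, RBBP4 and GATAD2A. A peak was a member if it overlapped, by at least 1 bp, a window drawn around 1 of the genes on build hg19. The windows add up to 658 kb, and 97 of the 159806 deposited peaks fell in them. After overlapping peaks of all lists were merged, these made 51 of 74123 regions. The rule for membership uses the position of the windows and no peak value.

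The cells were the 697 line, established human pre-B leukaemia cells, for which the labels record no treatment. Antibodies to MTA2, Mi2, HDAC2, IKAROS, AIOLOS, OCAB and OCT2 had 1 library each, and 1 library of genomic DNA was sequenced without an antibody as input. The series title ties MTA2 to B-cell development and to OCAB. With 1 library per antibody and no second one there is no replicate check, so no test between proteins was made and every interval covers counting error in tags or regions alone.

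NuRD joins ATP-dependent movement of nucleosomes, by the CHD subunits (also called Mi-2), to removal of acetyl groups from histones by HDAC1 and HDAC2. The MTA proteins hold the deacetylases in the complex, RBBP4 binds histones, MBD3 is related to proteins that bind methylated DNA, and GATAD2A links MBD3 to the CHD subunit. In lymphocytes the complex is known to associate with IKAROS and AIOLOS, zinc-finger factors of lymphoid development. OCT2 binds the octamer DNA sequence, and OCAB is a B-cell coactivator recruited through octamer-binding factors. MTA2 and HDAC2 were thus immunoprecipitated proteins whose own genes could be read, as was Mi2, which the labels do not resolve into CHD3 or CHD4. In what follows "MTA2 peak" and "HDAC2 peak" refer to the protein, and "MTA2 gene" or "HDAC2 window" to the locus.

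The promoters were searched for the octamer and for a core that IKAROS binds. RefSeq promoter windows (250 bases before to 50 bases after a start, build GRCh38.p14) were matched by symbol for all 10 genes, with 14 windows in all because MTA2, MTA3, RBBP4 and GATAD2A have 2 each. The octamer ATGCAAAT, searched on both strands (reverse ATTTGCAT), was present in 1 of the 14 windows and in 1.77% of all 35116 promoter windows. That window belongs to the MTA2 gene (chr11:62601816-62602115, minus strand, GRCh38.p14), and the octamer, bases 3 to 10 of the window, lies upstream of the annotated start. It is printed because the highest OCAB peak of the 10 windows also lay in the MTA2 window. The MTA1 and GATAD2A windows also held an OCAB peak, of height 28.5 and 9.69, and their promoters held no octamer. The HDAC2 promoter (chr6:113971099-113971398, minus strand, GRCh38.p14) is printed beside it for contrast, since the HDAC2 window held a single low peak. The 2 printed promoters were picked and show no link between octamer and OCAB peak. Capitals mark the octamer, 5′ to 3′.
MTA2 promoter: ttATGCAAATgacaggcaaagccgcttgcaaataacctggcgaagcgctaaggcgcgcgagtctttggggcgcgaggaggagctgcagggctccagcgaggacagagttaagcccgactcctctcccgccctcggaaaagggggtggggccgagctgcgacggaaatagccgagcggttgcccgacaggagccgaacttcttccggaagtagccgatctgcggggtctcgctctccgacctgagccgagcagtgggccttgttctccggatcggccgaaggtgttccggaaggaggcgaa
HDAC2 promoter: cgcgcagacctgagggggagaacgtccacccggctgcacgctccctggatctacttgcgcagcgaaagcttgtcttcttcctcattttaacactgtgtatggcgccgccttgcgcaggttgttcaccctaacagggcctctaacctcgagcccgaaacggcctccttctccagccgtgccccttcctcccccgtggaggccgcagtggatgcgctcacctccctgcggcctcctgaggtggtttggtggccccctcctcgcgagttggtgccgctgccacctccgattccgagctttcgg

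The peaks are on hg19 and the promoters on GRCh38, so no peak was placed on a promoter, exon or intron, and the octamer was not placed inside the OCAB peak. The letters TGGGAA (reverse TTCCCA), the core of sequences that IKAROS binds, were found in 2 of the 14 windows, the second window of MTA3 and the second of GATAD2A, and in 24.0% of all promoter windows. A match of letters describes the window and does not show a bound site. GC content was 63.0% in the MTA2 promoter shown and 64.0% in the HDAC2 promoter, against a median of 58.7% over all promoter windows.

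Peak height, as deposited, is a tag number scaled to a library of 10 M (M, 1000000), and is ranked only within its own list. Libraries held between 10.9 M tags (HDAC2) and 23.4 M (IKAROS), and the lists between 4440 peaks (OCAB) and 53948 (IKAROS). The HDAC2 list held peaks with deposited p-values over input of up to 9.5e-05, against at most 8.92e-10 in the other lists, so its counts are not comparable with those of other lists. In all 7 lists the smallest fold over the surrounding region was 4, so a site with less contrast to its surroundings is not listed whatever its height.

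IKAROS and AIOLOS peaks were found in the most windows. IKAROS had 32 peaks in 9 of the 10 genes and AIOLOS 25 peaks in 9 of 10, where 43.3% and 33.5% of 50 kb tiles laid over the peak-bearing span of the chromosomes held a peak of those lists. MTA2 had 19 peaks in 8 genes (28.7% of tiles) and HDAC2 10 peaks in 6 genes (19.4% of tiles). Mi2 had 4 peaks in 3 genes (14.2% of tiles), OCT2 4 peaks in 3 genes (11.3%) and OCAB 3 peaks in 3 genes (6.69%). The tiles include DNA far from genes and the windows run from 20 to 200 kb, so these shares are a rough guide. Peaks of all lists were 14.7 per 100 kb in the windows and 5.42 per 100 kb over that span, a ratio of 2.72, and the ratio ran from 1.74 for Mi2 to 3.02 for OCAB.

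Peaks of at least 1 of MTA2, Mi2 and HDAC2 were found at 8 of the 10 genes, against 33.9% of the same tiles, and the HDAC2 and MBD3 windows were the 2 without any. Of the 70 pairs of a window and a list, 41 held a peak. The gene with the most was GATAD2A, with 30 peaks of all 7 lists, which is 30.9% of the peaks in 20.2% of the window length. In peaks per length the MTA2 gene was densest, with 13 peaks of 6 lists in 20 kb, or 65.0 per 100 kb. CHD3 followed with 24.3 per 100 kb, then GATAD2A with 22.6, CHD4 with 19.1, HDAC1 with 17, RBBP4 with 14.0, MTA1 with 11.7, MTA3 with 6.50, MBD3 with 4 and HDAC2 with 2.17. In merged regions per length CHD3 came first, with 21.6 per 100 kb, ahead of the MTA2 gene with 4 regions in 20 kb.

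**Figure D1:**
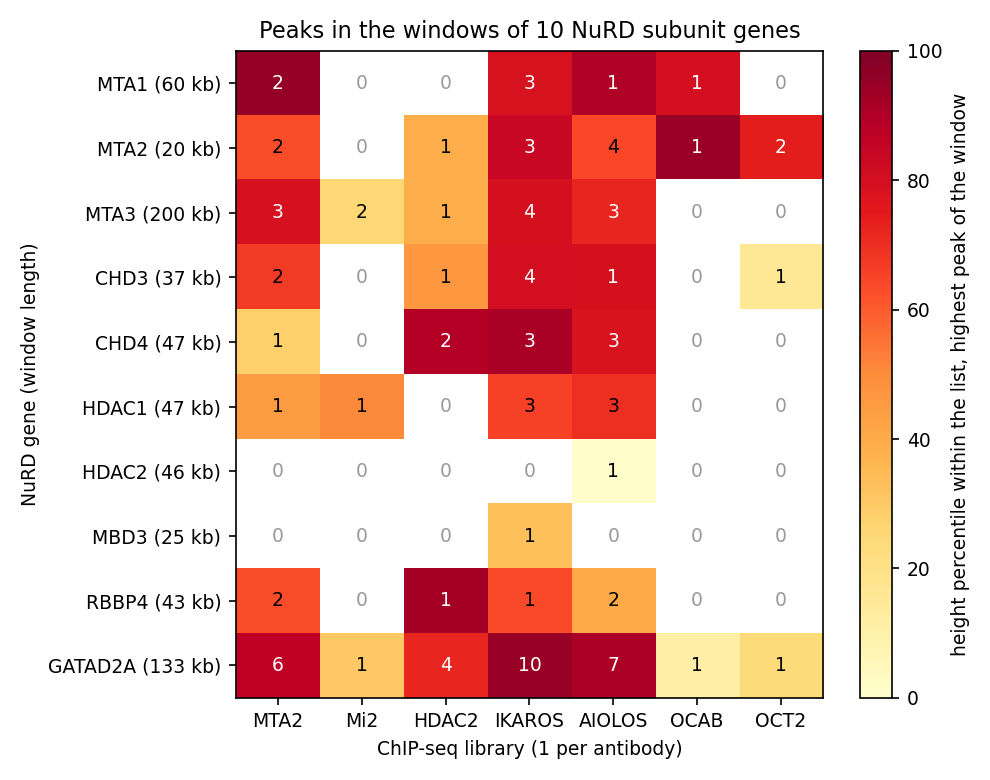
Number of peaks of each ChIP-seq library (columns) in each gene window (rows, with window length in kb), printed in the cells and coloured by the height percentile of the window's highest peak within that library's whole list. GATAD2A holds peaks of all 7 lists, and the HDAC2 and MBD3 windows hold 1 peak each.

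Taken singly, the proteins were distributed in the merged regions much as in the whole series. MTA2 was in 19 of the 51 regions, or 37.3% (95% Wilson interval 25.3 to 51), against 38.8% of all merged regions. HDAC2 was in 19.6% (11.0 to 32.5) against 21.8%, AIOLOS in 49.0% (35.9 to 62.3) against 51.4%, and OCAB in 5.88% (2.02 to 15.9) against 5.99%. These shares are near their backgrounds. IKAROS was in 62.7% (49.0 to 74.7) against 72.8%, OCT2 in 7.84% (3.09 to 18.5) against 11.0%, and Mi2 in 7.84% (3.09 to 18.5) against 13.9%; all 3 intervals include the share of the series.

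No region in the windows held MTA2, Mi2 and HDAC2 together. Peaks of all 3 were listed within 10 kb outside the HDAC1 and the CHD4 window, and whether any of those share a region was not examined. A count of 0 of 51 regions allows a share of up to 5.88% if regions are independent, which neighbouring regions may not be. Of all merged regions 3.92% held the 3 subunits, so 51 regions are too few to tell the count from that share. IKAROS and AIOLOS shared 16 regions, 31.4% (20.3 to 45.0) against 44.4% of all regions. MTA2 lay with both of them in 10 regions, 19.6% (11.0 to 32.5) against 25.6%, and OCAB lay with OCT2 in 2 regions, 3.92% (1.08 to 13.2) against 2.53%. A protein on its own accounted for 27 regions, 52.9% (39.5 to 65.9) against 44.7%.

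**Figure D2:**
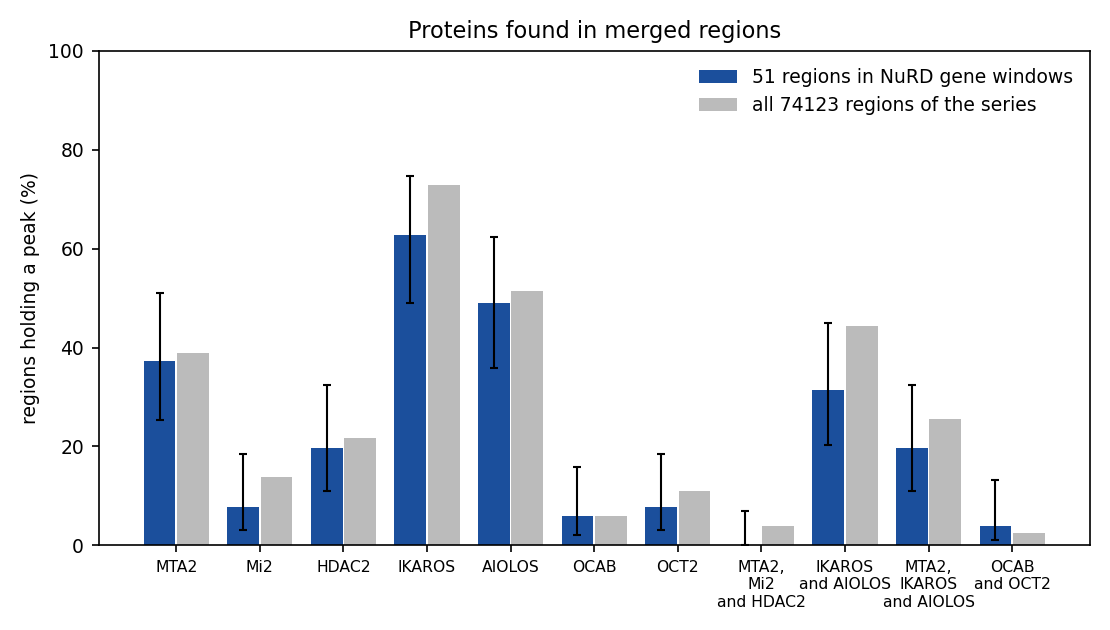
Share of merged regions (%) that hold a peak of each protein or combination, in the 51 regions at NuRD genes (left bar of each pair, with 95% Wilson intervals that cover counting error only) and in all 74123 regions of the series (right bar). The interval includes the share of the series for every protein and combination shown, and the 3 NuRD subunits met in 0 of the 51 regions.

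HDAC2 and MTA2 regions most often also held IKAROS, here as over the series, where IKAROS was in 72.8% of all merged regions. Of the 10 HDAC2 regions, 9 held IKAROS and 6 held MTA2, where over the series 74.8% of HDAC2 regions held IKAROS and 66.2% MTA2. Of the 19 MTA2 regions, 12 (63.2%) held IKAROS, against 77.0% of MTA2 regions in the series, and 5 (26.3%) held no other protein, against 14.7%. Of the 4 Mi2 regions, 3 held Mi2 alone, against 42.7% over the series, and none held HDAC2, against 34.5%. Of the 25 AIOLOS regions, 16 (64.0%) held IKAROS, against 86.5% over the series. AIOLOS stood alone in 7 of the 25, against 3645 of 38085 AIOLOS regions in the series. These are counts of regions in a few windows, and no test was made on them. Where MTA2 and IKAROS shared a region, their peak centres lay 1 to 351 bp apart, with a median of 54 bp over the 12 regions, and IKAROS and AIOLOS centres lay a median of 29 bp apart over 16.

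Pooled over the lists, the heights were near the middle. By list, the median percentile ran from 44.1 (AIOLOS) to 56.7 (IKAROS) for MTA2, HDAC2, IKAROS and AIOLOS. It was 80.0 for OCAB, 27.8 for Mi2 and 19.8 for OCT2, each with few peaks. The median peak at a NuRD gene stood at the 45.6th percentile of its list, 23 of 97 peaks (23.7%) were in the top 25% of their list, and 1 was in the top 5%. Median heights were 14.9 at NuRD genes and 16.2 over the whole list for MTA2, 14.2 and 14.7 for HDAC2, 12.2 and 14.6 for Mi2, 23.6 and 20.5 for IKAROS, and 21.2 and 23.7 for AIOLOS. The median heights were above that of the list for IKAROS and for OCAB, which had 28.5 over 3 peaks against 16.0. They were below it for the others, OCT2 having 9.84 over 4 peaks against 14.2. Median fold over input was below that of the list for every protein but OCT2 (10.4 against 9.85). It was 11.4 against 15.2 for IKAROS, 11.2 against 16.5 for AIOLOS and 9.92 against 11.6 for MTA2. Median fold over the surrounding region was below that of the list for every protein but OCAB (14.8 against 9.84). For IKAROS it was 7.37 against 11.7.

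**Figure D3:**
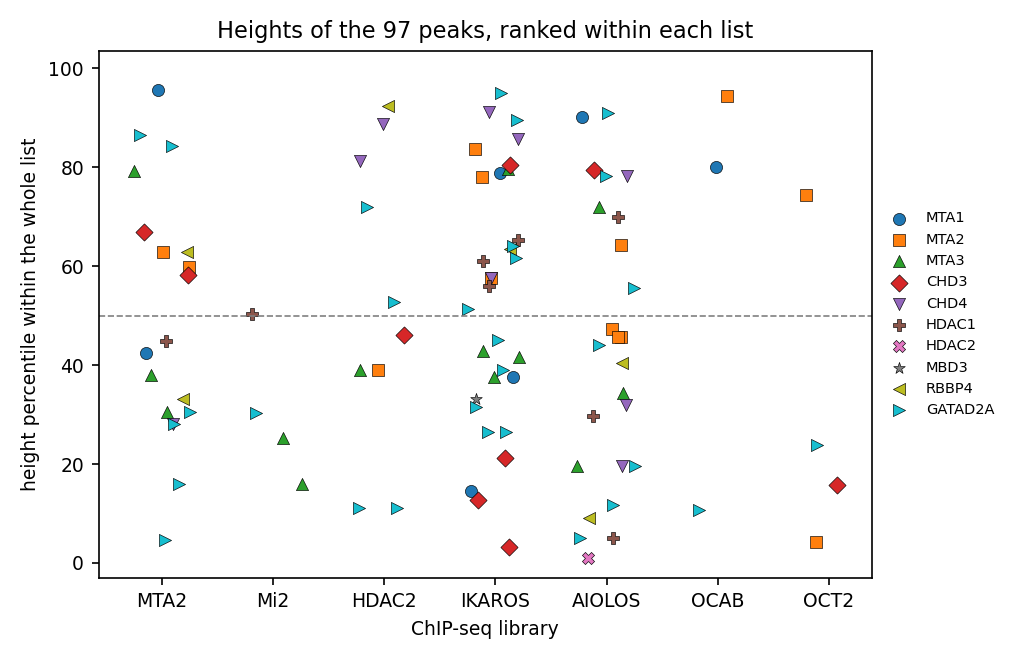
Height of each of the 97 peaks as a percentile within the whole list of its library (vertical axis), by library, with a symbol for each gene and a dashed line at the middle of the list. Of the peaks shown, 23 lie in the top 25% of their list; the 4 Mi2 peaks all lie at or below the 50.4th percentile.

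Among the scaffold genes, the MTA2 gene (chr11:62355000-62375000) was bound at 4 regions, each by at least 3 proteins. MTA2 itself had 2 peaks in the window of its own gene. At 62360919 to 62361169 the MTA2 height was 19.3 (44 tags, exact Poisson 95% interval 32.0 to 59.1), at the 62.8th percentile and 40.94-fold over input, together with HDAC2 (height 12.8), IKAROS (24.0) and AIOLOS (22.4). At 62366538 to 62366788 the MTA2 height was 18.4, with an enrichment of 4.88-fold over input and 8 input tags in the peak against 1 in the first, together with IKAROS (42.3) and AIOLOS (31.1). The 2 MTA2 peaks were thus of like height and unlike enrichment over input. No Mi2 peak was found in this window.

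The MTA2 window also held the highest OCAB peak of all 10 genes. It lay at 62369286 to 62369552 with a height of 61.5 (108 tags, 88.6 to 130), rank 252 of 4440 OCAB peaks, 16.34-fold over input. In the same region OCT2 had a low peak of height 7.64 (14 tags, 7.65 to 23.5), at the 4.27th percentile of its list, and AIOLOS a peak of height 21.8; their centres lay within 196 bp. Neither MTA2, HDAC2, Mi2 nor IKAROS had a peak there, and the combination of AIOLOS, OCAB and OCT2 alone was found in 11 of the 74123 regions. The OCAB centre lay 156 bp from that of AIOLOS and 196 bp from that of OCT2. The region is thus joined by overlap and not by a shared summit, and with centres within 100 bp OCAB would stand apart. The second OCT2 peak of the window, at 62359104 to 62359378, was higher (20.2, 37 tags), and 4.29-fold over input, against 16.23-fold for the low one, and lay with IKAROS (52.6) and AIOLOS (21.8). The order of the pair was therefore opposite for height and for fold over input. The scaled input held 0.9 tags at the low peak and 8.6 at the higher one, so the larger fold rests on very few input tags. The neighbouring genes TUT1 and EML3 lie close by, and a peak between 2 genes cannot be assigned to 1 of them from these lists.

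**Figure D4:**
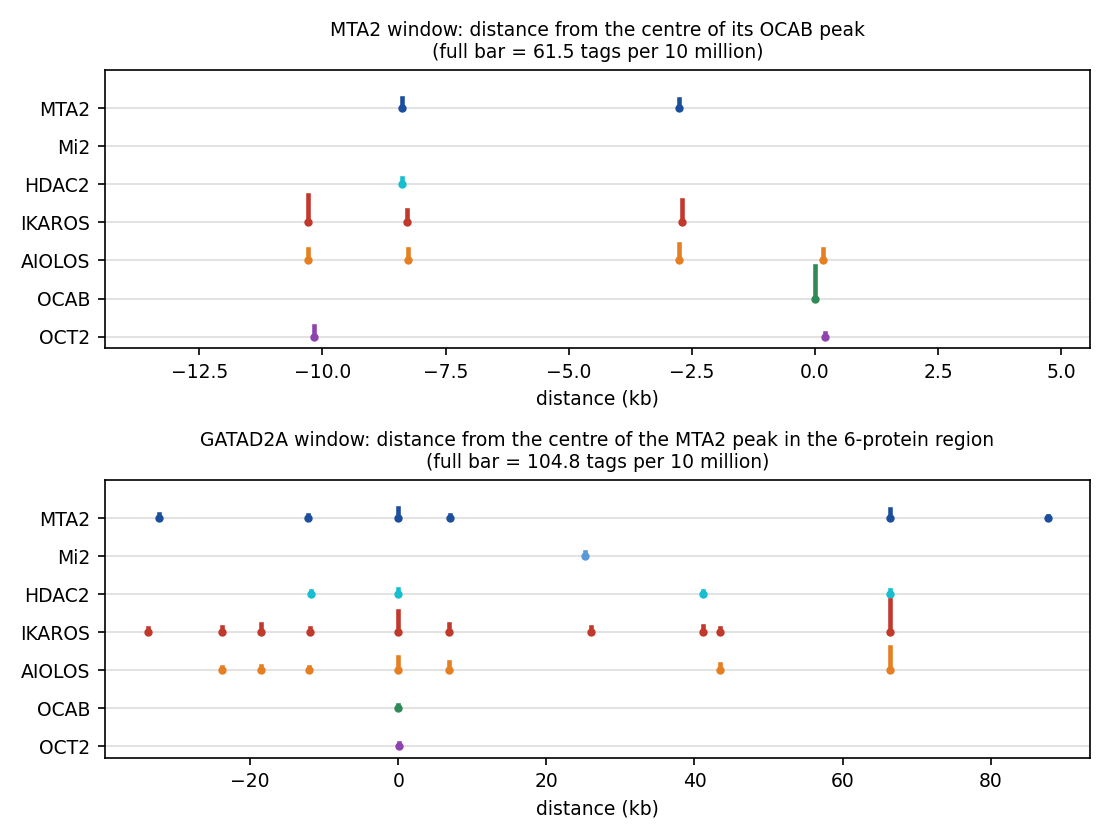
Peaks in the windows of the MTA2 gene (top) and GATAD2A (bottom) by library, as distance in kb from the centre of the OCAB peak and from the centre of the MTA2 peak in the region with 6 proteins; each bar's length is peak height in tags per 10 M, on 1 scale per panel. In the upper panel the OCAB peak of height 61.5 has an AIOLOS and an OCT2 peak beside it and none of MTA2; in the lower panel 6 proteins coincide at 0 kb.

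MTA1 (chr14:105880000-105940000) carried the highest MTA2 peak of the 10 genes. At 105937110 to 105937360 its height was 49.9 (114 tags, 94.0 to 137), rank 1277 of 28760, at the 95.5th percentile and 13.26-fold over input. In the same region AIOLOS had a height of 72.2, IKAROS 43.6 and OCAB 28.5 (51 tags, 38 to 67.1), with all 4 centres within 102 bp. The remaining 3 regions of the window held 1 protein each, with heights of 9.84 and 15.8 for IKAROS and 14.4 for MTA2. The region of 4 proteins lay near the end of the window, towards CRIP2, the next gene along, and a Mi2 peak of height 15.1 was listed 166 bp outside the window, so the window's edge decides whether MTA1 has a Mi2 peak.

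MTA3 (chr2:42790000-42990000) had 13 peaks in 200 kb, gathered near the 2 ends of the window with 182831 bp between them that held none. The RefSeq gene spans 263 kb on GRCh38, so the window leaves part of it out. At 1 end 4 regions lay within 3070 bp, and 1 of them held MTA2 (13.6), Mi2 (10.8) and IKAROS (17.5) with centres within 77 bp; this was the only region at a NuRD gene where Mi2 met another protein. At the other end, 42981502 to 42981887, MTA2 (26.3, 60 tags), HDAC2 (12.8), IKAROS (44.9) and AIOLOS (37.3) coincided within 101 bp, and a second Mi2 peak of height 11.9 lay 3579 bp further on. Among the 3 MTA windows, OCAB was listed at MTA1 and MTA2 and HDAC2 at MTA2 and MTA3, with 1 peak in each. Mi2 was listed inside the MTA3 window and, as given above, 166 bp outside that of MTA1; no test of a difference between these genes was made.

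The remodeller genes CHD3 and CHD4 encode Mi-2 proteins, and neither window held a Mi2 peak, where 14.2% of tiles did. A Mi2 peak and 2 MTA2 peaks were listed within 10 kb outside the CHD4 window. CHD3 (chr17:7783000-7820000) had 9 peaks in 8 regions, of which 7 held a single protein, the most divided pattern of the 10 genes. Within 2082 bp lay, side by side, an MTA2 peak of height 18.0 and a region with MTA2 (20.6) and OCT2 (9.27). The same span held an AIOLOS peak of height 46.1 and an IKAROS peak of height 46.2. The MTA2 peak of height 20.6 was 43.73-fold over input, where 1 input tag was found. The AIOLOS and IKAROS peaks there were separated by 14 bp and so count as 2 regions, although both stood near the 80th percentile (79.4 and 80.4). The other 4 peaks of the window, 3 of IKAROS and 1 of HDAC2, had heights from 6.84 to 13.7.

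CHD4 (chr12:6675000-6722000) had its highest peaks close together at 1 place in the window. Within 2684 bp, from 6714914 to 6717598, lay IKAROS peaks of height 57.7 and 77.8 (182 tags, 157 to 210), HDAC2 peaks of 21.1 and 24.7 (27 tags, 17.8 to 39.3) and an AIOLOS peak of 44.2. These 5 peaks stood between the 78.1st and 91.2nd percentile by height, yet between 4.33-fold and 4.84-fold over the surrounding region, just above the smallest fold listed. Of the 23 peaks at NuRD genes in the top 25% of their list, 5 were under 5-fold over their surroundings, and all 5 were these; over the series 3.57% of the peaks in the top 25% of their list were under 5-fold. No MTA2 peak was listed there. The 1 MTA2 peak of the window, 11.8 at 6677378 to 6677628, lay with AIOLOS (17.4) at the opposite end, on the side of NOP2. A further HDAC2 peak, of height 22, was listed 151 bp outside the window.

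**Figure D5:**
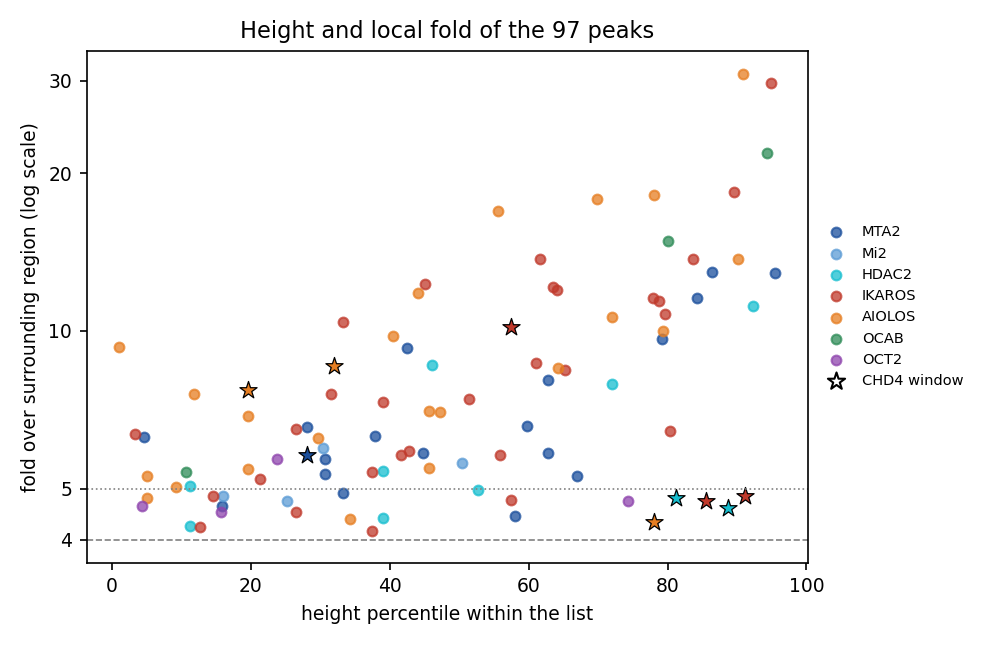
Fold over the surrounding region (log scale) against height percentile for the 97 peaks, coloured by library, with stars for the 9 peaks of the CHD4 window and lines at 4-fold (dashed, the smallest fold listed) and 5-fold (dotted). Of the CHD4 peaks, 5 lie above the 78th percentile and below 5-fold.

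The low local fold was not limited to CHD4. Of the 97 peaks, 23 (23.7%) were under 5-fold over the surrounding region, against 9.70% of all peaks, and among HDAC2 peaks they were 5 of 10 against 15.3% of its list. Of 41 pairs of neighbouring regions within a window, 19 (46.3%) were at most 2000 bp apart; windows of this length cannot hold the longest gaps between regions, so no share of the series is set beside it. Both limits, 5-fold and 2000 bp, were chosen after the values had been seen. The part of close neighbours in the low folds was not tested.

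The deacetylase genes differed from each other. HDAC1 (chr1:32755000-32802000) had 8 peaks in 5 regions. At 32782460 to 32782760 MTA2 (14.9, 34 tags), IKAROS (29.1) and AIOLOS (16.8) lay within 45 bp. Near the other end, a Mi2 peak of height 14.6 (27 tags, 17.8 to 39.3), the highest Mi2 peak of the 10 genes, stood alone 410 bp from a region with AIOLOS (35.5) and IKAROS (26.1). No HDAC2 peak was found in the HDAC1 window. The nearest lay 978 bp outside it, with a height of 25.7. Within 10 kb outside the window, 1 peak each of MTA2, Mi2, HDAC2, IKAROS, AIOLOS and OCT2 was listed.

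HDAC2 (chr6:114252000-114298000) was the barest locus. Its only peak was of AIOLOS, at 114292312 to 114292568, with a height of 8.71 (15 deposited tags, 8.40 to 24.7, where the height itself corresponds to 14), rank 37572 of 38101. Its p-value over input as the authors deposited it, 9.18e-11, was just inside the largest of that list, 9.53e-11. No peak of any list lay within 10 kb of either edge of the window, and the nearest was 18.1 kb away. The gene of the deacetylase that was itself immunoprecipitated thus had no peak of any NuRD protein, of IKAROS, or of the octamer factors.

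MBD3 (chr19:1572000-1597000) also had 1 peak, of IKAROS, at 1591492 to 1591764. Its height was 14.5 (34 tags, 23.5 to 47.5), at the 33.2nd percentile, and 30.9-fold over input, where 1 input tag was found. Unlike HDAC2, MBD3 had 4 peaks within 10 kb outside its window, 2 of AIOLOS, 1 of IKAROS and 1 of MTA2.

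RBBP4 (chr1:33112000-33155000), the histone-binding subunit, had all 6 of its peaks within 1358 bp. IKAROS (27.8), AIOLOS (19.9), HDAC2 (27.5) and MTA2 (19.3) formed a chain from 33115923 to 33116535, with centres spread over 351 bp, so the region is joined by overlap and not by a shared summit. The HDAC2 peak, at the 92.3rd percentile of its list with 30 tags (20.2 to 42.8), was the highest HDAC2 peak of the 10 genes. It was 4.58-fold over input, where the scaled input held 6.6 tags. An AIOLOS peak (11.8) followed after a gap of 223 bp, and an MTA2 peak (12.7) 17 bp beyond it.

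GATAD2A (chr19:19490000-19623000), which links MBD3 to the remodeller, had 13 regions spread over its window, and 8 of them held at least 2 proteins. The region with most proteins of all 51 was here, at 19529480 to 19529803, with every protein but Mi2. MTA2 had a height of 32.0 (73 tags), HDAC2 18.3, IKAROS 70.1 (164 tags), AIOLOS 44.2, OCT2 10.4 and OCAB 9.69 (17 tags, 9.90 to 27.2). The 6 centres lay within 53 bp, and MTA2, at the 86.4th percentile, was 33.96-fold over input, where 2 input tags were found. This set of 6 was found in 644 of the 74123 regions.

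The highest IKAROS and AIOLOS peaks of the 10 genes lay in another region of GATAD2A, at 19595869 to 19596198. IKAROS had a height of 104.8 (245 tags, 215 to 278), rank 2744 of 53948, and AIOLOS 75.3 (121 tags, 100 to 145), rank 3441 of 38101. MTA2 (29.8) and HDAC2 (14.7) were present with centres within 35 bp, and OCAB and OCT2 were not. MTA2, HDAC2, IKAROS and AIOLOS without the octamer factors was the commonest set of 4 proteins at the NuRD genes, with 5 regions, at MTA2, MTA3, RBBP4 and 2 at GATAD2A, against 3865 of the 74123 regions. With the p-value over input held to 1e-10 in every list, 2 of the 5 were left. A Mi2 peak of height 12.4 stood alone, 530 bp from an IKAROS peak of 18.4. GATAD2A, MTA2, MTA3 and RBBP4 were the 4 genes where MTA2 and HDAC2 shared a region.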

How the data were processed

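The authors deposited 1 peak list per antibody, in the column layout of HOMER's findPeaks, on build hg19; the submitters' processing notes name Bowtie2 2.3.2.2, HOMER 4.9.1 and CASAVA, in version 1.4 for the HDAC2 library and 1.8.2 otherwise. Per the file headers the HDAC2 list required 4-fold and p of at most 0.0001 over input and over the surrounding 10000 bp, at a false discovery rate of 0.001; for the remaining 6 antibodies no header records the calling parameters. The deposited height is a signal, tags per 10 M. The deposited tags per peak are whole counts in 5 lists; for IKAROS and MTA2 they were recovered from the step between low heights. In those 5 lists the deposited tags equalled height times depth, within 0.5 tags, in 93.5% (AIOLOS) to 100% (HDAC2) of peaks and were more in the rest. Fold columns are ratios, and p-values are HOMER's Poisson values, both as deposited. The deposited score, and the fraction of tags on the expected side of each peak centre, support no statement.

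Peaks of the 7 lists that overlapped by at least 1 bp were merged. Shares have Wilson and tags exact Poisson 95% intervals; a count of 0 allows 3 counts. The code for merging and windows was tested on simulated peaks. For each gene, the region with peaks of the most lists was named, ties going to the higher MTA2, then IKAROS height, and for each list its highest peak; other regions and peaks in the text were chosen after their values were seen. The members, windows and lists were chosen with earlier results of these data known. Further NuRD genes (MBD2, RBBP7, GATAD2B, CHD5, CDK2AP1) were not analysed here, since no hg19 annotation was used. Alternatives were a higher fold, a common p-value limit, shorter lists, and other rules for windows and merging. Python 3.11.15, numpy 2.4.6, pandas 2.3.3, scipy 1.17.1 and matplotlib 3.10.9 were used.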

Additional observations from a re-analysis of the deposited data

How the results depend on the processing

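With one p-value limit of 1e-10 over input for every list, with peak centres required inside the window, and with regions formed from centres within 100 bp, the counts of peaks, of merged regions, of window and list pairs, and of regions with MTA2, with IKAROS and AIOLOS, or with MTA2, Mi2 and HDAC2 stayed within 1.5 times their values; at that p-value limit HDAC2 had 4 peaks instead of 10. At 8-fold or more over input, the windows held 63 peaks instead of 97, 12 regions with MTA2 instead of 19, and 8 regions with IKAROS and AIOLOS instead of 16. With the 2000 highest peaks of each list, 5 peaks were left in 4 regions and 5 pairs of a window and a list, with MTA2 in 1 region and IKAROS with AIOLOS in 0. Those 5 were HDAC2 at RBBP4 and CHD4, OCAB at MTA2 and MTA1, and MTA2 at MTA1. A limit of 2000 keeps a larger part of a short list than of a long one. The OCAB list held 4440 peaks, that of AIOLOS 38101 and that of IKAROS 53948. Regions with MTA2, HDAC2, IKAROS and AIOLOS and no other, a count chosen after seeing the data, were 5; they were 1 at 8-fold, 2 at the common p-value limit, 0 with the 2000 highest, 3 with centres within 100 bp and 5 with centres inside the window. The count of regions, and of genes, with MTA2, Mi2 and HDAC2 together was 0 under all 5 alternatives. None of the 5 could have raised it, since each only removes peaks or splits regions. Fewer peaks enter by construction under both stricter criteria. No paired analysis was possible because each antibody had 1 library. Depth limits low peaks: a peak of 14 tags has an interval of 7.65 to 23.5 tags. No peak was assigned to a gene part, since peaks and annotation are on different builds.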
